A study of Mus musculus with 6 samples.

Results

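Structural myelin proteins were described through the read counts of 9 genes, namely Mbp, Mobp, Mal, Mag, Mog, Cnp, Cldn11, Opalin and Plekhb1. The genes were taken by name from a fixed list of proteins of compact and non-compact myelin, out of 37315 genes counted per library, and all 9 passed the filter of 10 counts over a pair. RNA-seq libraries had been made from the hippocampus of C57BL/6J mice aged 4 weeks. In the first pair, Prrc2a f/f mice, whose Prrc2a alleles are both floxed, were set against Prrc2a f/f;Nestin-Cre mice, in which the recombinase acts in neural progenitors and therefore in neurons, astrocytes and oligodendrocytes alike. In the second pair, further Prrc2a f/f mice were set against Prrc2a f/f;Olig2-Cre mice. This Cre acts in the oligodendroglial lineage and is driven from the endogenous Olig2 gene, so these mice also lack a working Olig2 copy that their f/f controls have. In the third pair, wild-type (WT) mice were set against mice carrying an Fto transgene (Fto Tg). The 2 f/f controls are called the first and the second f/f library after their pair. Both were taken to carry the floxed alleles without Cre, as the study's f/f controls did, though their titles call them Prrc2a WT. No library carried Cre alone, and whether tissue of several mice was pooled is not given in the sources used here. Each of the 6 groups had 1 library, so no difference within a pair could be set against replicates of its own group.

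Myelin is the membrane that oligodendrocytes wrap around axons. In its compact part the cytoplasm is squeezed out between the layers, a step that needs myelin basic protein, whereas the inner tongue, the paranodal loops and the outermost layer keep their cytoplasm and hold adhesion and signalling proteins. Prrc2a is a protein that binds mRNA carrying N6-methyladenosine, and Fto is the demethylase that takes the mark off again. The pairs thus ask whether the mRNA of myelin proteins differs where this reader is deleted or this eraser is overexpressed. In bulk tissue, fewer oligodendrocytes and less mRNA per oligodendrocyte cannot be told apart, and this holds for every difference below.

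The targeted genes were read first. Prrc2a stood at 433.6 CPM (counts scaled by the library total) in the f/f library and 184 CPM in Prrc2a f/f;Nestin-Cre. The log2 ratio of -1.24 was -0.55 under the TMM scaling of edgeR and 0.27 once adjusted for GC content and exon length by a smooth fit over genes, and whether reads from the floxed exons were lost was not read here. Prrc2a stood at 389 CPM in the second f/f library and 346 CPM in Prrc2a f/f;Olig2-Cre, which was not called (log2 ratio -0.17). Fto stood at 158 CPM in WT and 354 CPM in Fto Tg. Total counts were lowest for Olig2-Cre, 18616540, and highest for the first f/f library, 35482589. The Nestin-Cre library stood apart from the others. Mitochondrially encoded genes took 26.2% of its reads against 7.97% to 8.86% in the other 5 libraries, its 10 most abundant genes took 26.1% against 7.52% to 8.33%, and the read-weighted mean GC content of its genes was 45.7% against 48.5% to 49.2%. Its TMM factor, the scaling that edgeR derives from the bulk of genes, was 0.672 against 1.07 to 1.09. The part of these differences in the values of the myelin genes was not tested as a cause. The Nestin-Cre log2 ratios of the myelin genes are therefore given under several scalings. Values in CPM and their sums are given under library totals only.

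In the 3 control libraries the 9 genes together took 0.637% to 0.714% of all reads, and Mbp alone gave 47.1% to 49.4% of the reads of the 9. Levels of different genes were compared per length, as RPKM (CPM per kilobase of the gene's merged exons). Mbp, whose product holds the cytoplasmic faces of compact myelin together, was highest at 394 ± 22.5 RPKM (SD, n = 3 control libraries, 2 f/f and 1 WT). Mobp, a small basic protein of compact myelin, followed at 203 ± 15.8 RPKM. The tight-junction protein Cldn11 stood at 202 ± 20.9 RPKM, and Mal, a proteolipid of myelin membrane, at 196 ± 25.2 RPKM. The ranges of Mobp, Cldn11 and Mal over the controls overlapped, so their order is not set. Cnp, the cyclic nucleotide phosphodiesterase of non-compact myelin, followed at 152 ± 9.19 RPKM, and Mog, an immunoglobulin-type protein of the outermost layer, at 80.9 ± 9.25 RPKM. Plekhb1, a membrane protein with a pleckstrin homology domain, and Mag, the adhesion molecule that faces the axon, overlapped at 64.2 ± 2.44 and 62.9 ± 4.37 RPKM. Opalin, a glycoprotein of the oligodendrocyte surface, was lowest at 11.9 ± 2.09 RPKM.

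**Figure D1:**
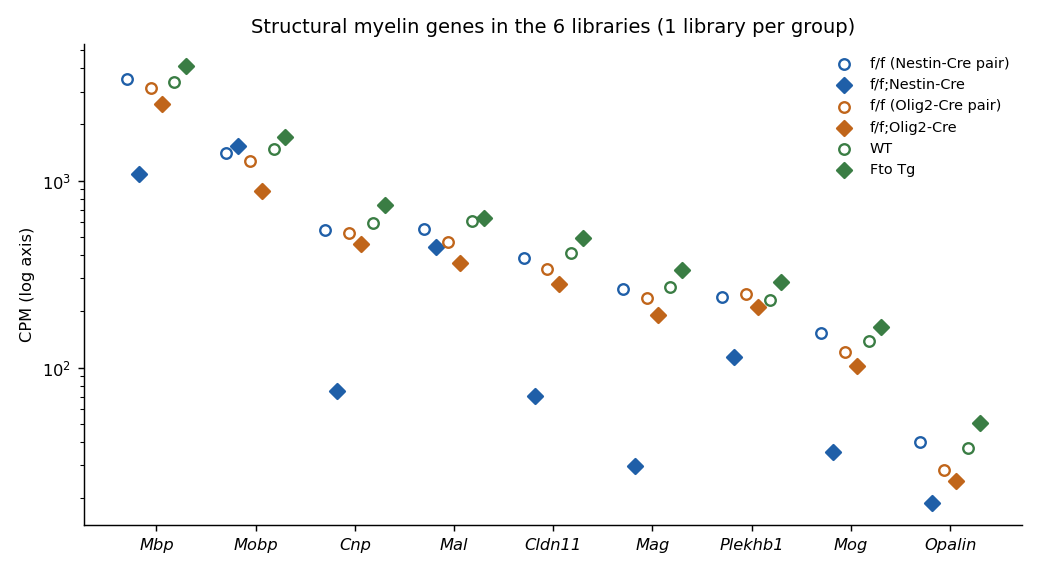
CPM (log axis) of the 9 genes in the 6 libraries, ordered by their mean over the 3 controls. Open circles are control libraries and filled diamonds are the libraries with Cre or the transgene, with 1 point per library. The blue Nestin-Cre diamonds lie far below the controls for Cnp, Cldn11, Mag and Mog and among or next to them for Mobp and Mal.

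Counting error was small beside these differences. The widest Wilson 95% binomial interval of any of the 54 values was that of Opalin in the Olig2-Cre library, 24.6 CPM with bounds of 22.4 and 27.0, and the narrowest was that of Mbp in Fto Tg, 4118 CPM with bounds of 4097 and 4139. Such intervals cover counting only, since PCR copies are not independent molecules.

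In the Nestin-Cre pair 8 of the 9 genes were lower in the Cre library, by amounts that differed widely, and Mobp was not. Mag went from 264 CPM in f/f to 29.8 CPM in Nestin-Cre (Wilson 95% bounds 28.0 and 31.7), 8.86-fold lower. Cnp went from 545 to 75.2 CPM, 7.25-fold lower. Cldn11 went from 385 to 70.4 CPM, 5.47-fold lower. These 3 genes stood between 190 and 744 CPM in the other 5 libraries. Mog went from 153 to 35.3 CPM, 4.34-fold lower. Mbp went from 3507 to 1080 CPM, 3.25-fold lower, which in reads was the largest loss of the 9. Opalin went from 39.9 to 18.8 CPM and Plekhb1 from 238 to 113 CPM, 2.118-fold and 2.105-fold lower. Mal fell least, with 554.5 CPM in f/f and 441 CPM in Nestin-Cre, 1.26-fold lower. Mobp was not lower and had 1414 CPM in f/f and 1539 CPM in Nestin-Cre.

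The read test of the study (MARS of DEGseq, at a false discovery rate below 0.001 and a fold of at least 1.2) called 8 of the 9 genes lower and did not call Mobp, whose log2 ratio was 0.12. The test compares 2 libraries and not 2 genotypes. Of all 18170 genes tested in this pair it called 53.4% lower and 11.5% higher, so that a call alone says little about a single gene here. The median log2 ratio was -1.70 over the 9 genes and -0.72 over all genes tested. Against the full range of the 3 controls under library totals, 8 of the 9 genes lay below all of them in the Nestin-Cre library, as did 66.9% of all genes. Mobp lay above all of them, as did 17.7% of all genes. Under TMM, and likewise under DESeq2 size factors, 6 of the 9 lay below and 2 above. With totals without mitochondrial genes 7 lay below and 1 above. The shares of all genes under these other scalings were not counted.

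The sign of the log2 ratio of Mal and the call of Mobp depended on the scaling, whereas Mobp had a log2 ratio above 0 under each scaling. Under TMM, which moved the median of all genes from -0.72 to -0.03, the log2 ratios were -2.46 for Mag, -2.17 for Cnp, -1.77 for Cldn11, -1.43 for Mog and -1.01 for Mbp, all called lower. Opalin (-0.40) and Plekhb1 (-0.39) were called lower too. Mobp (0.81) and Mal (0.35) were called higher, in a pair in which TMM called 30.1% of all genes lower and 28.5% higher. When the log2 ratios were adjusted for GC content and exon length, the same 7 genes were lower, from -1.82 for Mag to -0.39 for Plekhb1, and Mobp (0.98) and Mal (0.42) were again higher, against 27.8% of genes lower and 27.8% higher. A scaling shifts all genes alike, and the spread among the 9 genes was 3.27 on the log2 scale under library totals and under TMM, and 2.80 after the adjustment.

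**Figure D2:**
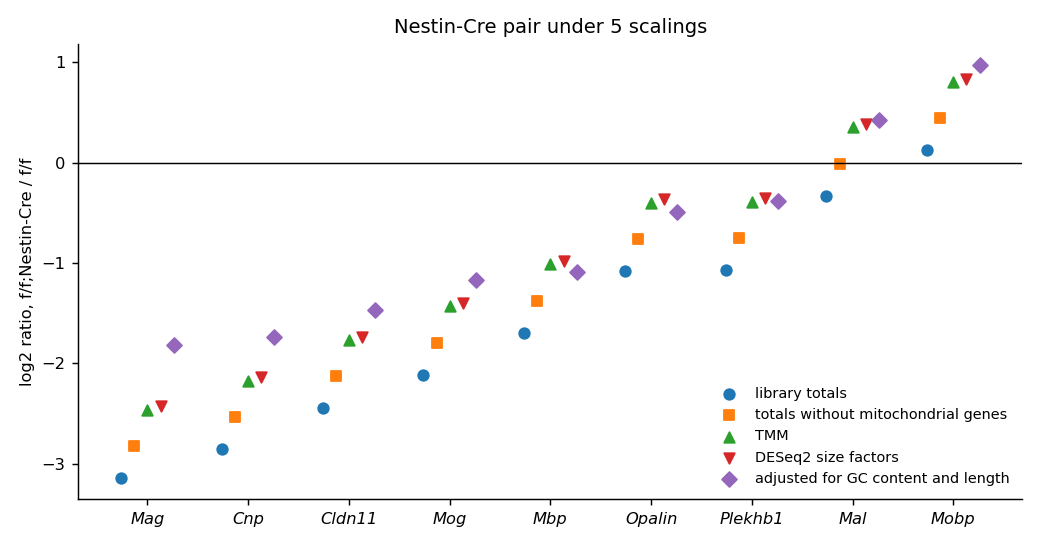
log2 ratios of the 9 genes in the Nestin-Cre pair under 5 scalings, ordered by the ratio under library totals. Mag lies lowest under each scaling, from -3.15 under library totals to -1.82 with the adjustment, and Mobp lies highest, from 0.12 to 0.98.

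Ratios of 2 genes within a library need no scaling and showed the same divergence. Mobp had 5.36 reads per read of Mag in the f/f library and 51.6 in Nestin-Cre, while the other 5 libraries ran from 4.61 to 5.54. Mal had 1.44 reads per read of Cldn11 in f/f and 6.26 in Nestin-Cre, against 1.29 to 1.47 in the other 5. Mbp, itself reduced, still had 36.2 reads per read of Mag in Nestin-Cre, against 12.4 to 13.6. Cnp had 2.52 reads per read of Mag in Nestin-Cre, above the 2.06 to 2.41 of the other 5 but 1.22 times its own control only. The ratio of Plekhb1 to Opalin, 6.01, lay inside the 5.72 to 8.78 of the other 5. Mobp thus went from 19.9% to 45.2% of the reads of the 9 genes and overtook Mbp, which went from 49.4% to 31.7%. Mag went from 3.72% to 0.876%.

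**Figure D3:**
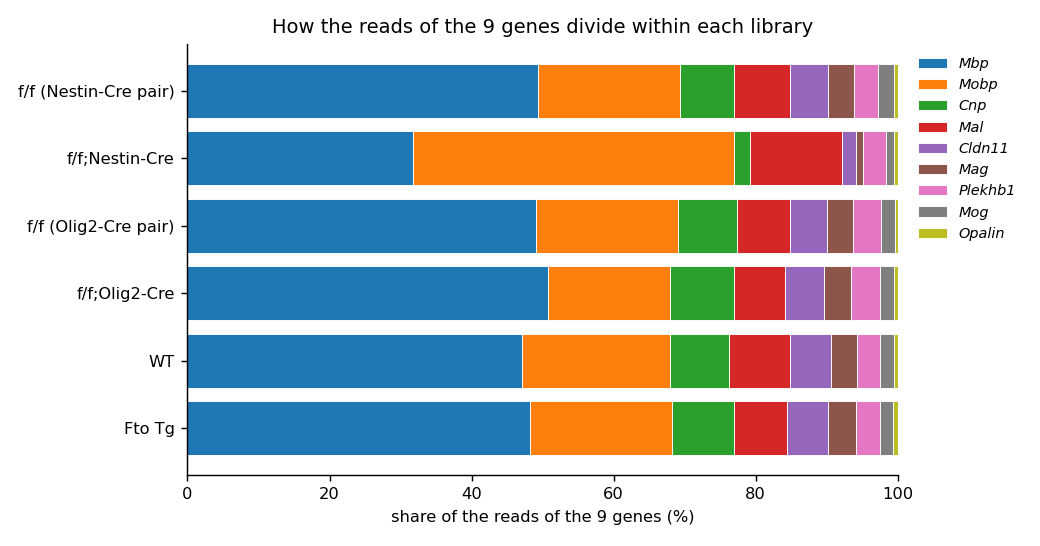
Share (%) of the reads of the 9 genes taken by each gene, 1 bar per library. In 5 libraries Mobp takes 17.2% to 20.8% and Mbp 47.1% to 50.8%, whereas in the Nestin-Cre library Mobp takes 45.2% and Mbp 31.7%.

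GC content moved with the log2 ratio across genes in this pair. A smooth fit on GC content and exon length took up 21.7% of the variance in log2 ratios among 13630 genes that had 100 counts or more. Such a trend was not particular to this pair, as the same fit took up 17.3% in the Olig2-Cre pair and 22.2% in the Fto pair. Mag had the highest GC content of the 9, 57.6%, where genes within 1 percentage point of it had a median log2 ratio of -1.35. Cnp (54.8%) and Mobp (53.3%) had nearly equal GC content and log2 ratios of -2.86 and 0.12, against medians of -1.10 and -1.02 for genes of like GC content. Cldn11 (50.9%) and Mbp (51.0%) had log2 ratios of -2.45 and -1.70, against a median of -0.75 for both. Of the genes with like GC content, 87.2% lay below Mobp, 4.26% below Cnp and 4.09% below Mag.

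**Figure D4:**
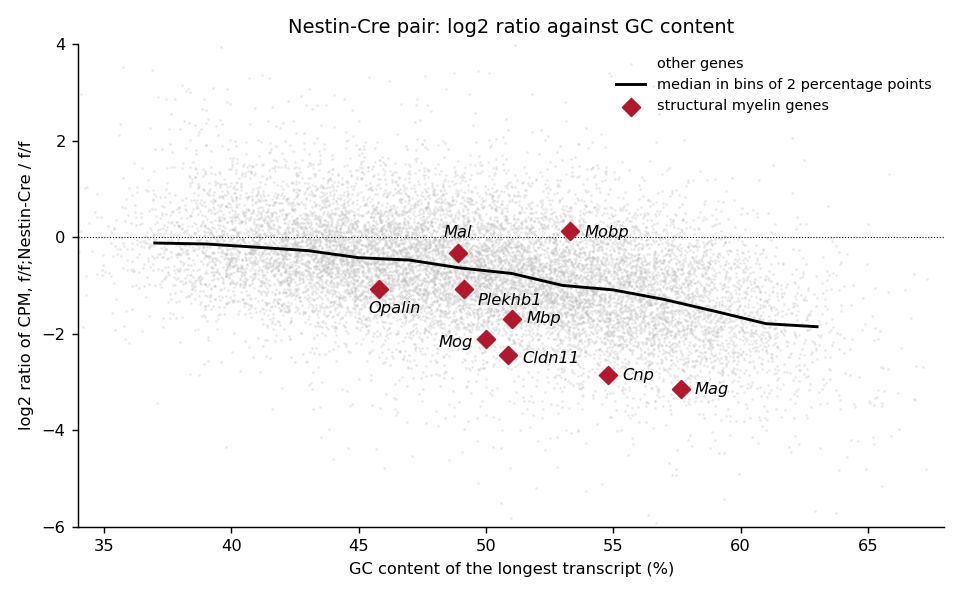
log2 ratio in the Nestin-Cre pair against the GC content (%) of the longest transcript, for genes that reach 100 counts in the pair (grey), with the median in bins (black line) and the 9 structural myelin genes (red diamonds). Mobp lies above the line and Mag, Cnp, Cldn11, Mog and Mbp lie below it.

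Tests that bring in the spread between libraries called most of the genes. When edgeR's exact test was given the dispersion found among the 3 controls (a biological coefficient of variation of 0.134), Mag, Cnp, Cldn11, Mog and Mbp were called lower and Mobp higher, 6 of 9 genes where 44.6% of all genes were called. The adjusted p of edgeR's exact test ran from 1.8e-15 for Mag to 0.0094 for Mobp, and was 0.26 to 0.29 for Mal, Opalin and Plekhb1. In a test added after the data were seen, edgeR's quasi-likelihood test of the 1 Nestin-Cre library against all 3 controls called 7 of the 9, where 48.6% of all genes were called. Plekhb1 passed there with an edgeR adjusted p of 0.038, while Mal (0.068) and Opalin (0.47) did not pass. Both tests assume that the lone library varies like the controls.

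Genes at both ends of this order were set side by side at their promoters. A set of 6 motifs was searched on both strands in the 250 bases before each start. The motif ACAAAG, the core recognised by Sox proteins, is shown here and was chosen after its count in Mobp was seen. RefSeq windows (GRCm38.p6) were found for 8 of the 9 genes, not for Mbp, with 11 starts in all. The sequences of Mag and Cnp, which fell most, of Mobp, which was not called, and of Mal, which fell least, are written on the strand of the gene with matches to ACAAAG or its reverse CTTTGT in capitals.
Mag, chr7:30914864-30915113, minus strand: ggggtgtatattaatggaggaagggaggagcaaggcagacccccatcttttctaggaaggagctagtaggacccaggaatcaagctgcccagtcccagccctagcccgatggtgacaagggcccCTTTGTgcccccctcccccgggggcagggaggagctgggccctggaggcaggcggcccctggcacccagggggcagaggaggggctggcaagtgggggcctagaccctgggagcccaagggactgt
Cnp, chr11:100574689-100574938, plus strand: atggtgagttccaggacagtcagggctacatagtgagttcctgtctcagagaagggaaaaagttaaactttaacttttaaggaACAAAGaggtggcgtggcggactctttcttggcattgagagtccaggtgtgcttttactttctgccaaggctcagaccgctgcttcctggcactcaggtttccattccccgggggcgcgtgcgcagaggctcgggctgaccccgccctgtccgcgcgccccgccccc
Mobp, chr9:120149492-120149741, plus strand: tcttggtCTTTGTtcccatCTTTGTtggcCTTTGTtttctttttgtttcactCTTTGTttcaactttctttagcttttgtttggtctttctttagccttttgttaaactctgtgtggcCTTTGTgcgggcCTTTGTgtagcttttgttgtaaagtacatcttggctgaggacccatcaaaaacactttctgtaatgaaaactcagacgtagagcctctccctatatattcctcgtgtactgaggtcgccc
Mal, chr2:127656696-127656945, minus strand: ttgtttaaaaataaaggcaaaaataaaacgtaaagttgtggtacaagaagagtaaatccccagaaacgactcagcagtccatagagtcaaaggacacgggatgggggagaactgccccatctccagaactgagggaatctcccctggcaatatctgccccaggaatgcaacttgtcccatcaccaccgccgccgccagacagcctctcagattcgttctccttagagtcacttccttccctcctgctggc
The Mobp window held 6 matches, and it was the only 1 of 32851 start windows of all genes with as many. The first and second of the 3 Mag windows (the first is shown), the Cnp and Opalin windows and 1 of 2 Plekhb1 windows held 1 match each. The third Mag window and those of Mog, Cldn11 and Mal held none, where 16.5% of all windows held at least 1. The motif ACAATG (in 10.7% of all windows) had no match in the 11 windows, nor had the E-box CAGCTG (in 13%) or the TATA box TATAAA (in 12.4%). The GC box GGCGGG had 2 matches in Cnp and none in the others (32.5% of all windows), and the CCAAT box was held by 2 Mag windows, both Plekhb1 windows and the Cldn11 window (33.85%). The GC content of the windows was 66% for Mag, 57.2% for Cnp, 50% for Mal and 40.8% for Mobp, beside a median of 52.4% over all windows. A match is a string of letters and not a site shown to be bound.

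The transcripts also differed in GGACT, the most frequent letters around N6-methyladenosine in mRNA. The longest coding transcript of Mobp held 8 matches, 2.43 per kilobase, and 94.3% of 21405 genes had fewer per kilobase. Opalin, Plekhb1 and Mog held 1.63, 1.43 and 1.17 per kilobase, so that 4 of the 9 lay above the median over all genes, 1.02. Cnp, Mbp and Mal held 0.424, 0.417 and 0.36 per kilobase, and Mag and Cldn11 held none. Genes called lower in the Nestin-Cre pair thus lay on both sides of the median. Whether any of these positions carries the mark was not measured in these libraries.

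Primers that the study used to measure 3 of the genes by RT-qPCR show which stretch such an assay reads, where the counts here cover all exons of a gene. All lie in coding sequence (GRCm38, positions on GENCODE M21 transcripts), and each pair is written 5′ to 3′ in lower case.
Mag forward, chr7:30911897-30911918, exon 4: ctgccgctgttttggataatga
Mag reverse, chr7:30911671-30911690, exon 5: catcggggaagtcgaaacgg
Cnp forward, chr11:100576245-100576265, exon 2: tttacccgcaaaagccacaca
Cnp reverse, chr11:100576341-100576361, exon 2: caccgtgtcctcatcttgaag
Cldn11 forward, chr3:31150150-31150170, exon 1: atggtagccacttgccttcag
Cldn11 reverse, chr3:31150269-31150289, exon 1: agttcgtccatttttcggcag
Only the Mag pair spans an intron, and none of the primers matched a transcript of another gene. In GENCODE M21, Cnp shares 154 exon bases with Dnajc7 on the opposite strand and Mobp shares 79 with Gm38642. Counting in union mode without strand leaves reads in such an overlap unassigned where its annotation holds both genes.

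In the Olig2-Cre pair all 9 genes were lower in the Cre library, by small and similar amounts. Mobp was lowered most, from 1274.5 CPM in f/f to 876 CPM in Olig2-Cre, 1.45-fold. Mal went from 470 to 361 CPM, 1.303-fold lower, Mag from 236 to 190 CPM, 1.24-fold, and Mbp from 3130 to 2579 CPM, 1.21-fold. These 4 genes were called lower by the read test, where 6.91% of all genes were. The other 5 lay under the fold of 1.2, with Cldn11 at 336 and 280 CPM, Mog at 122 and 102 CPM, Plekhb1 at 247.5 and 210.3 CPM, Cnp at 527 and 459 CPM, and Opalin at 28.2 and 24.6 CPM. The median log2 ratio was -0.26 over the 9 genes and -0.003 over all genes tested, and the 9 spanned 0.345 on the log2 scale, against 3.27 in the Nestin-Cre pair. Mobp, the gene that did not fall with Nestin-Cre, was thus the gene with the largest fall here. Under library totals every one of the 9 lay below all 3 controls in the Olig2-Cre library, where 30.2% of all genes did. This count was 9 of 9 under TMM, DESeq2 size factors and totals without mitochondrial genes as well, but the shares of all genes under these were not counted.

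The tests that use the spread between control libraries did not call these differences, and they called few genes of any kind. The exact test of edgeR with the control dispersion called none of the 9 (0.304% of all genes; 0 of the 9 and 846 of 17742 genes at an unadjusted p under 0.05). The added quasi-likelihood test against all 3 controls called no gene at all (0.00%), with an edgeR adjusted p of 0.58 for Mobp, 0.59 for Mbp and 0.67 for Plekhb1. At an unadjusted p under 0.05 that edgeR test had 7 of the 9 and 1481 of 17490 genes. The log2 difference from the control mean was -0.66 for Mobp, -0.59 for Mal and -0.18 for Plekhb1, which in units of the SD of the 3 controls ran from -1.87 for Opalin to -5.86 for Mobp.

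In the Fto pair all 9 genes were higher in Fto Tg. Opalin went from 37.3 CPM in WT to 50.3 CPM in Fto Tg, 1.35-fold higher, Cnp from 592 to 744 CPM, 1.26-fold, and Plekhb1 from 229 to 288 CPM, 1.25-fold. Mag went from 269 to 333 CPM, 1.24-fold higher, and Mbp from 3366 to 4118 CPM, 1.22-fold. These 5 genes were called higher by the read test, where 6.97% of all genes were. Cldn11 at 413 and 493 CPM, Mog at 139 and 165 CPM and Mobp at 1487 and 1705 CPM fell short of the fold of 1.2. Mal, with 608.5 and 635 CPM, had the smallest log2 ratio, 0.06. The median log2 ratio was 0.29 over the 9 genes and -0.005 over all genes tested. Under library totals all 9 lay above the 3 controls in Fto Tg, where 27.7% of all genes did. The 9 did so under the other 3 scalings too, for which the shares of all genes were not counted.

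Here too the tests that use the spread between controls called few genes of any kind. The exact test of edgeR with the control dispersion called none of the 9 (0.565% of all genes; 0 of the 9 and 1005 of 18051 genes at an unadjusted p under 0.05). The added quasi-likelihood test called none of the 9 (0.0224% of all genes), with an edgeR adjusted p from 0.45 for Cnp to 0.64 for Mal. At an unadjusted p under 0.05 that edgeR test had 7 of the 9 and 1755 of 17831 genes.

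**Figure D5:**
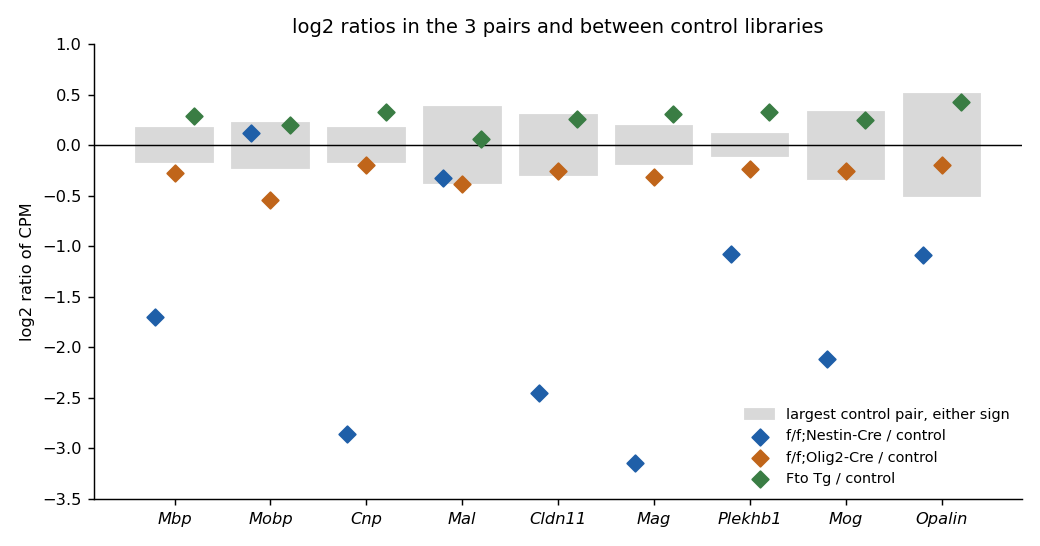
log2 ratios of the 9 genes in the Nestin-Cre, Olig2-Cre and Fto pairs (diamonds, 1 library against 1) with a grey box reaching the largest log2 ratio between 2 control libraries, drawn to either side. The Nestin-Cre diamonds of 7 genes lie outside the box, whereas those of Mobp and Mal lie within it. The Olig2-Cre diamonds of Mog, Cldn11 and Opalin lie within it and the others outside, that of Mal only just. The Fto diamonds of Mbp, Mag, Cnp and Plekhb1 lie outside it and the others within.

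Control libraries set against each other gave the scale of differences without Cre or transgene. The second f/f library had 2 genes called lower than the first, Mog (122 and 153 CPM) and Opalin (28.2 and 39.9 CPM), where 13.1% of all genes were called in either direction. WT against the first f/f library had none of the 9 called by the read test, where 17.3% were, and the exact test of edgeR called none either, with 0 of the 9 at an unadjusted p under 0.05. The exact test took its dispersion from these same controls, so it cannot decide whether they differ. WT against the second f/f library had Cldn11, Mal and Opalin called higher, where 7.20% were called. The second f/f library was the lowest of the 3 controls for 8 of the 9 genes, Plekhb1 being the exception. Set against the first f/f library or WT, the Olig2-Cre library therefore had 7 and 8 of the 9 genes called lower. Of all genes, 1952 of 17988 and 1655 of 17522 were called lower in these comparisons.

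The only contrast with more than 1 library in each arm set the 2 Cre libraries against the 2 f/f libraries. None of the 9 genes was called by the quasi-likelihood test of edgeR, which called no gene at all (0.00% of 16921 genes, 143 of them and 0 of the 9 at an unadjusted p under 0.05), and the Wald test of DESeq2 called 1 gene and none of the 9. The log2 ratio was -1.07 ± 0.69 (SE) for Mag, -0.88 ± 0.67 for Cnp and 0.33 ± 0.59 for Mobp, each with an edgeR adjusted p of 0.95. The 2 Cre libraries differ widely from each other, with a biological coefficient of variation of 0.399. Without the Olig2-Cre library 7 of the 9 and 8480 genes were called, which is again the Nestin-Cre library against the f/f libraries.

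Other genes of the mature oligodendrocyte, a list of 24 that act in myelin lipid synthesis, gap junctions and membrane, were counted beside the 9. In the Nestin-Cre pair 21 of the 24 were called lower, 1 (Ermn) higher, where 53.4% of all genes were called lower and 11.5% higher. Under TMM 17 were called lower and 2 higher, where 30.1% and 28.5% of all genes were. The median log2 ratio was -1.71 (-1.02 under TMM). Qdpr, which regenerates tetrahydrobiopterin, went from 147 to 11.8 CPM, Car2, a carbonic anhydrase, from 151 to 33.3 CPM, and the tetraspanin Tspan2 from 262 to 124 CPM. In the Olig2-Cre pair 12 of the 24 were called lower (6.91% of all genes) and none higher, with a median of -0.31. In the Fto pair 8 were called higher (6.97% of all genes) and none lower, with a median of 0.22. After the adjustment for GC content and length 1 of the 24 was called higher and 1 lower there. Their median was then 0.15, and 9.19% of all genes were called in either direction.

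Transcription factors and other regulators of myelin genes were counted next. Of 12, 9 were called lower and 2 higher in the Nestin-Cre pair, where 53.4% of all genes were called lower and 11.5% higher. Under TMM 6 were called lower and 4 higher, where 30.1% and 28.5% of all genes were. The median was -0.94, and -0.25 under TMM. Sox10, which activates myelin genes, went from 52.05 to 25.6 CPM (log2 ratio -1.02, -0.34 under TMM, 0.89 with the GC and length adjustment). Myrf, the factor required for myelin gene transcription, went from 70.3 to 35.3 CPM (-0.99, -0.31 and 0.14 in the same order), and Olig2 from 38.9 to 15.5 CPM (-1.33, -0.65 and 0.20). Olig1 went from 138 to 16.5 CPM and was lower under TMM and after the adjustment too, whereas Zeb2 (251 and 473 CPM) and Zfp488 (100.5 and 164 CPM) were higher. In the Olig2-Cre pair 4 of 12 were called lower, where 6.91% of all genes were. They included Olig2 (36.9 and 23.7 CPM), whose gene the Cre allele interrupts, Myrf (68.7 and 44.1 CPM) and Sox10 (40.2 and 33.3 CPM). Olig1 was the 1 called higher (129 and 186 CPM, against 4.95% of all genes). In the Fto pair Olig1 was called higher (146 and 261 CPM, against 6.97% of all genes) and Olig2 lower (43.2 and 31.5 CPM, against 8.51% of all genes).

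Genes of earlier stages of the lineage were counted in the same way, and their difference from the 9 was not tested. Of 8 measured genes of newly formed oligodendrocytes, 6 were called lower in the Nestin-Cre pair and none higher, where 53.4% of all genes were called lower. Their median log2 ratio was -0.84, against -0.72 over all genes tested. Under TMM 1 was called lower and 2 higher, where 30.1% of all genes were called lower and 28.5% higher. The values were 143 and 137 CPM for Bcas1, 190 and 115 CPM for Sirt2 and 159 and 85.9 CPM for Fyn. Of 6 measured genes of oligodendrocyte progenitors, 5 were called lower and 1 higher, with a median log2 ratio of -0.92, and 3 lower and 1 higher under TMM. Pdgfra stood at 75.2 and 46.0 CPM and Cspg4 at 27.4 and 8.52 CPM, both called lower. Ptprz1, at 222 and 276 CPM, was the 1 called higher, where 11.5% of all genes were. In the Olig2-Cre pair 2 of the 8 and 1 of the 6 were called lower, where 6.91% of all genes were. The summed CPM of the 9 structural genes was 47.9% of its own f/f control in the Nestin-Cre library, beside 39.8% for the 24 other mature genes, 63.5% for the newly formed stage and 95.7% for progenitors. Ptprz1 gave most of the progenitor sum, and the other 5 progenitor genes were all lower under library totals. Under TMM not all of them were, with log2 ratios of -0.02 for Pdgfra and -0.999 for Cspg4. Axonal partners of myelin, such as Cntn1, Nfasc and Cadm3, had 5 of 10 called lower and 2 higher in the Nestin-Cre pair, close to the 53.4% and 11.5% of all genes. Under TMM 1 was lower and 7 higher, against 30.1% and 28.5% of all genes.

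Markers of other cells in the tissue were read beside these results. The choroid plexus, which lies against the hippocampus and can be carried along in dissection, summed over 5 markers to 1608.5 to 2827 CPM in the controls, 257 CPM in Nestin-Cre, 3346 CPM in Olig2-Cre and 677.5 CPM in Fto Tg. All 5 were called lower in the Nestin-Cre and in the Fto pair, where 53.4% and 8.51% of all genes were. Ttr stood at 2710 and 211 CPM and at 1529 and 641 CPM in these pairs. Under TMM 3 of the 5 were called lower in the Nestin-Cre pair, against 30.1% of all genes. Astrocyte markers (7) summed to 5205 to 5369 CPM in the controls and 5766, 4945 and 4761 CPM in Nestin-Cre, Olig2-Cre and Fto Tg. Markers of hippocampal neurons (8) summed to 3970 to 4101 CPM in the controls and 5935, 3789 and 3687 CPM in the same libraries. Microglial markers (6) summed to 213 to 245 CPM in the controls and 154, 261 and 245 CPM in Nestin-Cre, Olig2-Cre and Fto Tg. Endothelial markers (5) summed to 187 to 209 CPM in the controls and 138.5, 200 and 227 CPM in these libraries. The part of tissue composition in the results for the 9 genes was not tested.

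Genes outside the 9 with a like profile were sought over the 6 libraries, by the root mean square distance of centred log2 CPM from the mean profile of the 9, among 10015 genes of at least 10 CPM. The nearest were Tmem88b, at a distance of 0.08, followed by Rnf122, Spry2, Zkscan6, Nkx6-2, Tmem242, Sema4d, Fam57a, Tmem63a and Ndufaf7, at up to 0.13. Of these, Tmem88b belongs to the mature oligodendrocyte list and Nkx6-2, an oligodendroglial homeobox factor, to the regulators. Mbp had the smallest distance of all (0.05), Mog was at 0.15, and Mobp (0.67) and Mag (0.57) ranked 7743 and 6746 of the 10015 genes by nearness. Each of the 9 takes part in the mean it was compared with. Without the Nestin-Cre library the 9 drew together, at distances of 0.02 (Mag) to 0.15 (Plekhb1) and ranks of 1 to 101 among the same genes.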

How the data were processed

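Poly(A) RNA of 6 hippocampal libraries, 1 per group, had been made into TruSeq libraries and read at 101 bases. The deposited files hold raw counts per Ensembl gene, which the authors made with Cutadapt, Trimmomatic, TopHat on mm10 (TopHat2 2.0.9 in the submitters' processing notes) and HTSeq 0.6 in union mode without strand, from uniquely mapped reads. Reads shared by near-identical genes were thereby lost. The methods describe paired reads and the labels leave it open. Groups came from the genotype labels, and for the f/f controls from titles that read Prrc2a WT. Whether libraries came from separate or pooled mice is not given in the sources used here, so spread between libraries may be technical or biological.

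Counts were scaled by library totals (CPM). MARS of DEGseq, the test of the study, was programmed from its formulas in Python 3.11.15 (numpy 2.4.6, pandas 2.3.3, scipy 1.17.1, scikit-learn 1.9.0), with 0.5 added to each count, at least 10 counts over the pair, a false discovery rate below 0.001 and a fold of at least 1.2. It was fitted on all genes and holds no variation between mice. The 3 pairs of control libraries were run alike. The 2 Cre libraries were tested against the 2 f/f libraries in edgeR 4.0.16 under R 4.3.3 by its quasi-likelihood test (TMM, filterByExpr, Benjamini-Hochberg false discovery rate below 0.05, two-sided). Alternatives were TMM, DESeq2 1.42.0 size factors and Wald test, totals without mitochondrial genes, a spline fit of the log2 ratio on GC content and log2 exon length, no filter, other controls, edgeR's exact test given the spread among the 3 controls, the experiment as a block and leaving out libraries. MARS, the spline fit and edgeR's quasi-likelihood test were tested on simulated counts. Totals of 18616540 to 35482589 counts put the floor of 3 counts at 0.0845 to 0.161 CPM.

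The 9 genes and all lists were chosen with earlier results of these data known. Named genes were the 9, Prrc2a, Fto, the 3 most abundant genes of each list with Olig2, Sox10 and Myrf, and the 10 nearest profiles. Ermn, Dnajc7 and Gm38642 were named after their values were seen. Symbols were found for 95.0% of identifiers, and 2 of 110 listed genes could not be matched. One marker list is not reported here. Lengths, GC content and positions came from GENCODE M21 (GRCm38, the assembly of mm10) and promoters from RefSeq.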

Additional observations from a re-analysis of the deposited data

Results flagged for a closer look

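Mobp had log2 ratios of opposite sign under the 2 Cre drivers, 0.12 for Nestin-Cre and -0.54 for Olig2-Cre. The first was not called under library totals and lay within the largest ratio between controls, 0.22, and the second was called lower. The first was called higher under TMM (0.81), DESeq2 size factors (0.84) and totals without mitochondrial genes (0.44), and after adjustment for GC content and length (0.98). The second was called lower under each of these. With 1 library per group the difference between the 2 drivers was not tested.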

How the results depend on the processing

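Over 477 recomputed values, 393 kept their direction and their side of the threshold, 35 lost it, 37 passed it newly and 12 changed sign. In the Nestin-Cre pair the log2 ratio of Mal was -0.33 under library totals and 0.35 under TMM, 0.39 under DESeq2 size factors, 0.42 after adjustment for GC content and length, 0.36 in the exact test and 0.40 against all 3 controls. In the Olig2-Cre pair 4 of the 9 genes were called, where 11.9% of all genes were. With the first f/f library or WT as control 7 and 8 were called, where 19.8% and 17.6% of all genes were. The count was 0 both in the exact test and against all 3 controls. In the Fto pair 5 were called (15.5% of all genes), but 3 after the adjustment for GC content and length (9.19% of all genes, Mal at -0.0077). Against the second f/f library 8 were called (19.2% of all genes). The count was 0 both in the exact test and against all 3 controls. Between the 2 f/f libraries 2 were called, 1 after the adjustment (Cnp at 0.0073) and 0 in the exact test, and between WT and the second f/f library 3 and 0. Mbp in WT against the first f/f library was 0.020 after the adjustment. In the contrast of Cre against f/f, Mal was 0.069 and -0.0076 with the experiment as a block. Leaving out each library in turn gave 0 to 7 of the 9 genes called, log2 ratios of -0.61 to 0.90 for Mobp and of -0.50 to 0.49 for Mal. The tests against all 3 controls, and all alternatives for the pairs of controls, were chosen after seeing the data. The cause of these changes was not tested.

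Over all genes, the calls lower and higher in the Nestin-Cre pair were 9699 and 2097, but 5465 and 5185 under TMM, 5281 and 5370 under DESeq2 size factors, 7664 and 3353 without mitochondrial genes and 4956 and 4951 after the adjustment. DESeq2 size factors turned 1226 and 878 for Olig2-Cre into 1027 and 1124, and 1537 and 1259 for Fto Tg into 1264 and 1596, where the adjustment gave 722 and 909. Calls in either direction were 2104, 1196 (adjusted), 3567 (other f/f control), 54 (exact test) and 0 (3 controls) for Olig2-Cre. For Fto Tg they were 2796, 1631, 4439, 102 and 4 by the same steps. The exact test took the 3 control pairs from 2420, 3152 and 1298 calls to 278, 382 and 100, and the adjustment took the second to 1871. The dispersion of the exact test came from these same controls, so it cannot decide whether they differ. In Cre against f/f there were 0 calls, 1 with DESeq2, 2 with the block, and 0 to 8480 without 1 library, the highest being without Olig2-Cre.

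The labels give no replicate numbers. With each Cre library paired with its own f/f control by the block, none of the 9 was called (Mag -1.38, unadjusted edgeR p 0.033). With 1 library per group, a difference between genotypes and one between single libraries cannot be told apart in the Olig2-Cre and Fto pairs. The tests that use the spread between controls called at most 0.565% of all genes there. Their lack of calls therefore does not show that the 9 differ no more than control libraries do.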
